A study of Mus musculus with 3 samples.

Results

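C4 is a cluster of cycling effector CD8+ T cells from the spleens of mice with acute graft-versus-host disease. The study's table of cells places each of 10833 CD8+ T cells in 1 of 9 clusters, named C0 to C8, and C4 was found there as the cluster with 1015 cells from saline-treated mice, 81 from mice given cyclosporine (CSA) at 5 mg/kg and 20 from mice given CSA at 50 mg/kg. These 1116 cells belong to 21204 donor T cells in all, CD4+ cells included. The markers that went with the cluster's name were Mki67, Top2a and Cd226.

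T cells that meet alloantigen enlarge, divide and become effector cells that kill through granzymes and perforin. Mki67 and Top2a mark cells in cycle, since the first encodes the coat protein of mitotic chromosomes and the second the topoisomerase that untangles replicated DNA. Cd226 encodes DNAM-1, a costimulatory receptor of CD8+ T cells and NK cells that binds CD155 and CD112, shares these ligands with the inhibitory receptor TIGIT and aids killing. CSA inhibits calcineurin, the phosphatase that brings NFAT into the nucleus after signalling through the T cell receptor (TCR), and is given after transplantation to prevent graft-versus-host disease.

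All mice were B6D2F1 recipients, conditioned by total body irradiation, that received an allogeneic graft of B6 bone marrow with polyclonal B6 T cells and a small dose of T cells from TEa TCR transgenic donors. They were injected daily from day 0 to day 6 with saline or with CSA at 5 or 50 mg/kg, and spleens were taken on day 7, with 6 mice in each group. Spleens of 2 mice were pooled, which gave 3 pools per group, each marked with its own hashtag antibody. Donor CD4+ and CD8+ T cells were sorted, mixed in equal parts and loaded as 1 droplet capture for each treatment, so that treatment and capture cannot be told apart. Every group compared here thus carried the allogeneic transplant, and all mice of a group shared the trace of TEa cells. The study used mice of both sexes, and their ages are not given in the sources used here. The pool of 2 mice was the replicate here, and replicate numbers follow the hashtags and do not link pools of different groups.

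The CD8+ cells of a pool held between 4392100 and 11454636 unique molecular identifiers (UMIs, counted RNA molecules). C4 held 2129585 to 2618189 UMIs in a saline pool, 88053 to 199989 in a pool of CSA 5 mg/kg and 45400 to 65845 in a pool of CSA 50 mg/kg. Of the CD8+ cells, 100 shared their barcode with a cell of another capture, 10 of them in C4. No doublet was left in the study's own call. By the deposited hashtag counts, 37 saline cells of C4 (3.65%) and 8 cells at CSA 5 mg/kg (9.88%) still carried a second hashtag at 0.5 or more of the count of the first. Values below are UMIs summed over the cells of a cluster in a pool and given per 1000000 UMIs (CPM). Clusters had been made from these same RNA counts, so that differences between clusters in RNA are given as descriptions with no test.

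C4 was the most common cluster over all saline CD8+ cells, with 21.88% against 20.26% for C0, and was rare under CSA. It made up 22.4% (95% exact binomial interval 20.3 to 24.7), 22.9% (20.9 to 25.04) and 20.4% (18.4 to 22.4) of the CD8+ cells of the 3 saline pools. At CSA 5 mg/kg the shares were 3.18% (2.00 to 4.77), 3.04% (1.99 to 4.42) and 2.96% (2.05 to 4.14). At CSA 50 mg/kg they were 0.537% (0.197 to 1.17), 0.623% (0.251 to 1.28) and 0.542% (0.218 to 1.11). The 3 groups did not overlap, with means of 21.9% ± 1.36, 3.06% ± 0.110 and 0.567% ± 0.0480 (SD, n = 3 pools), and the shares were not tested because the cluster was located by its cell numbers. The intervals cover counting error only.

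The share of all cycling clusters moved much less. The clusters C2 and C3 are also cycling, and together with C4 they held 52.2 to 54.0% of CD8+ cells in saline pools, 44.8 to 52.2% at 5 mg/kg and 38.4 to 52.3% at 50 mg/kg. Of these cycling cells, C4 held 39.0 to 42.4% in saline pools, 5.67 to 7.10% at 5 mg/kg and 1.04 to 1.62% at 50 mg/kg.

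**Figure D1:**
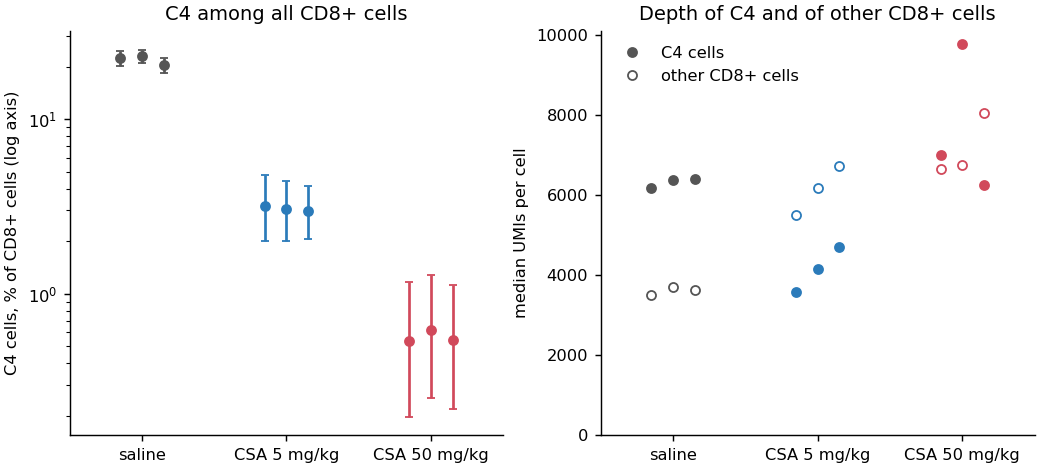
The left panel plots the share of C4 among CD8+ cells (percent, log axis) in each pool by treatment, with 95% exact binomial intervals, and the right panel the median UMIs per cell of C4 (filled) and of the other CD8+ cells (open) in the same pools. The share lies near 22% in saline pools, near 3% at CSA 5 mg/kg and under 1% at 50 mg/kg, and C4 cells are the deeper cells in saline pools and the shallower ones at 5 mg/kg.

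The cells that bore the C4 label differed in quality between doses. In saline pools the median C4 cell held 6178, 6369 and 6405 UMIs, against 3504, 3707 and 3634 for the other CD8+ cells. At CSA 5 mg/kg the order was turned, with 3570, 4163 and 4703 UMIs in C4 against 5505, 6178 and 6725 in the other cells. The median share of mitochondrial RNA in C4 was 2.06 to 2.16% in saline pools and 3.38 to 3.64% at 5 mg/kg. A TCR was detected in 84.1 to 86.2% of C4 cells of saline pools and in 54.5 to 69.2% of those at 5 mg/kg. The antibody tags gave a median of 129 CD8 tag counts and 12 CD4 tag counts per C4 cell in saline, and of 176 and 15 at 5 mg/kg. What part these differences had in the RNA differences between doses was not tested.

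C4 was checked against the markers in its name. Mki67 was at 2742, 2710 and 2686 CPM in C4 of the 3 saline pools, and the next cluster was C3 with 1012, 1081 and 1180. Top2a was at 1564, 1490 and 1559 CPM, and the next cluster was C2 with 635, 635 and 590. Both were highest in C4 with no overlap. Cd226 was at 411, 367 and 394 CPM in C4 but at 502, 482 and 482 in C0, a cluster with little Mki67, and at 372, 356 and 394 in C3, which overlapped C4. Cd226 was thus high in C4 but did not set it apart, and the lowest levels were those of C7, the naive cells, with 86.4, 94.7 and 93.6 CPM. The T cell genes Cd3e (824 CPM ± 18.5) and Cd8b1 (1184 CPM ± 61.2) were present, and Cd4 was at 0 in every pool. By mean level C4 was the lowest of the 9 clusters for Cd3e, Cd3d and Cd8b1, and held rank 7 for Cd8a.

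**Figure D2:**
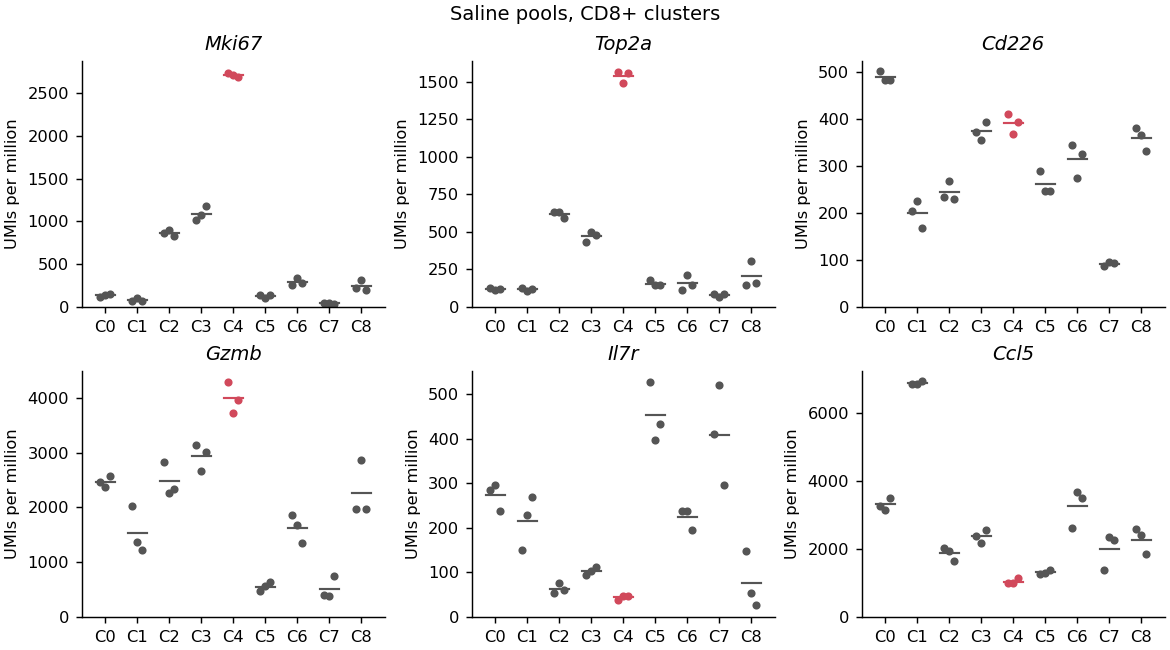
Each panel plots 1 gene in clusters C0 to C8 of the saline pools in CPM, with a point for each of the 3 pools, a line at the mean and C4 in red. Mki67 and Top2a stand highest in C4, Cd226 is higher in C0, Gzmb is highest in C4 and Il7r and Ccl5 are low in C4.

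In saline pools, C4 differed from the other CD8+ cells foremost in the genes of mitosis. Of 8366 genes with at least 10 CPM on the higher side, 305 (3.65%) were at least 2-fold higher in C4 in each of the 3 pools and 109 (1.30%) at least 2-fold lower. Scaled by TMM in place of CPM the split was 217 higher and 186 lower. The median over all these genes was 0.16 on the log2 scale, so that a gene at no difference in CPM lay slightly below the middle. Of the 32 genes fixed for G2/M and mitosis, 25 were higher and none was lower, with a median of 1.66. Of the 30 genes of S phase, 11 were higher and none lower, with a median of 0.93.

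Mki67 was at 537, 579 and 563 CPM in the other CD8+ cells and at 2742, 2710 and 2686 in C4, a log2 ratio of 2.28 ± 0.07 (SD over 3 pools) or 4.84-fold. The pools were nearly alike and far from overlapping. The largest ratio among genes of at least 50 CPM was that of Polq, which encodes the polymerase of end joining at broken DNA, with 53.2 against 7.73 CPM and a log2 ratio of 2.64 ± 0.20. Mastl, the kinase that holds phosphatase PP2A off in mitosis, followed with 65.9 against 11.1 CPM. Spindle genes were close behind: Kif11, the motor that pushes spindle poles apart, stood at 495 against 110 CPM, and Prc1, which bundles the midzone of the spindle, at 451 against 100. Espl1, the separase that cuts cohesin, was at 77.9 against 17.4 CPM. Anln, the anillin of the cleavage furrow, was at 112 against 23.1 CPM, and Fancd2, of crosslink repair, at 61.5 against 13.3. The other genes of this rank included Ndc1, Ccnf, Kif18b, Sgo2a, Mtfr2 and Top2a, with log2 ratios between 2.11 and 2.25.

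Among the 109 genes lower in C4 were memory, interferon-stimulated, oxidative phosphorylation and chemokine genes. Of 26 oxidative phosphorylation genes 5 were lower and none higher, with a median of -0.81. Of 20 memory, homing and quiescence genes with at least 10 CPM, 7 were lower and none was higher, with a median of -0.82. Il7r, the IL-7 receptor chain that keeps resting T cells alive, was at 43.8 against 180 CPM, a log2 ratio of -2.02 ± 0.16. Tcf7, the transcription factor TCF-1 of naive and stem-like cells, was at 27.8 against 99.0 CPM. Ccr7, Bcl2, Id3 and Bach2 were lower as well. Of 14 interferon-stimulated genes 6 were lower and none higher, among them Isg15 (29.9 against 76.9 CPM) and Ifi27l2a (244 against 620). Ifitm1, an interferon-induced membrane protein outside that list, was at 112 against 320 CPM.

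Effector genes did not move as a group. Of 17 cytotoxic and cytokine genes none was 2-fold higher and 3 were lower, all of them chemokines. Ccl5 was at 987, 995 and 1134 CPM in C4 against 2741, 2708 and 2678, a log2 ratio of -1.39, and Ccl4 and Xcl1 were at -1.41 and -1.36. The longest annotated transcripts of these 3 genes are under 1 kb, as are those of 39.8% of the genes lower in C4. Among all genes of this comparison 5.34% are that short, and the part of transcript length was not tested. Gzmb, the main granzyme, was at 4291, 3729 and 3954 CPM in C4 against 2389, 2045 and 2132, a log2 ratio of 0.87 ± 0.02 that did not reach 2-fold. The naive cluster C7 still showed 403, 385 and 741 CPM of Gzmb, and the source of this RNA was not tested. Prf1, perforin, was at 430 against 287 CPM on average, and Cd226 at 391 against 316, a log2 ratio of 0.30 ± 0.07.

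Of 15 activation genes only Tfrc, the transferrin receptor of dividing cells, was at least 2-fold higher, with 81.4 against 23.0 CPM. Il2ra, the high-affinity IL-2 receptor chain, was at 128 against 59.5 CPM on average. Of 9 inhibitory receptor genes none passed the 2-fold rule. Havcr2, which encodes TIM-3, was at 360 against 178 CPM with a log2 ratio of 1.01 ± 0.02 on average. Lag3 (248 against 250 CPM) and Tigit (234 against 263 CPM) were nearly level. None of 21 genes of the calcineurin and NFAT response and none of 12 effector transcription factor genes passed the rule either. Of 26 nuclear genes of oxidative phosphorylation 5 were lower, none had a ratio above 0, and the median was -0.81. Of 18 glycolysis genes only Slc16a1, a lactate carrier, was higher, with a median of 0.39. Cxcr4 was the 1 of 11 chemokine receptor and integrin genes that was higher, and Hcst the 1 of 8 killer lectin-like receptor and adaptor genes that was lower. None of 12 survival genes passed. Of other cell types, Igkc of B cells and C1qa of macrophages were lower in C4 and no marker was higher.

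The other cycling clusters were C2 and C3, and members of the mitotic list were higher in C4 than in them as well. Of 8274 genes, 106 (1.28%) were higher in C4 in every pool and 51 (0.616%) lower, with a median over all genes of 0.23. Scaled by TMM in place of CPM the split was 40 higher and 138 lower. Without saline replicate 2 the rule, which is looser with fewer pools, took in 163 higher genes. Which side held more genes thus turned with the scaling, and the ratios below are in CPM. Of the 32 mitotic genes 13 were higher and none lower (median 0.96), whereas none of the 30 S phase genes passed (median 0.40). The ratio was above 0 for 27 of the 32 mitotic genes and smallest for Cenpa. Cenpa, Ube2c, Birc5, Ccnb2, Cdc20, Cks1b and Cks2 were highest in C3, with no overlap with C4. Cenpf and Hmmr were highest in C3 too, with overlapping pools. Mitotic RNA was thus not highest in C4 for every gene. Mki67 was at 923, 971 and 957 CPM in C2 and C3 together, a log2 ratio of 1.51 ± 0.05, and Top2a was at 1.45 ± 0.08. Polq (2.00), Mastl (1.87), Prc1 (1.54) and Depdc1b (1.47) were among the largest ratios. Tfrc, the only activation gene to pass, was at 81.4 against 25.3 CPM, 1.66 ± 0.13. Cd226 was at 391 against 293 CPM, 0.41 ± 0.12, and Havcr2 at 360 against 185, 0.96 ± 0.13, neither of them 2-fold in every pool. Cxcr4 was higher and Hcst and Igkc were lower, and of the other lists only oxidative phosphorylation had members that passed.

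More than 50% of the genes lower in C4 than in C2 and C3 had transcripts under 1 kb (52.9%). Of 26 oxidative phosphorylation genes 7 were lower and none had a ratio above 0 (median -0.92), led by Atp5e (230 against 597 CPM). Others were Tmsb10 (2494 against 6192 CPM) and Tmsb4x (4597 against 10385), which encode actin-binding thymosins, Cox17, Uqcrq, Atox1 and Ifitm1 (112 against 307). The median longest transcript of the 51 lower genes was 0.946 kb, against 4.20 kb for the 106 higher genes and 3.39 kb for all genes of the comparison. This held across the transcriptome. The median log2 ratio of C4 over C2 and C3 was -0.61 for genes under 1 kb (356 genes) and 0.49 for genes over 6 kb (976 genes), and over the other CD8+ cells it went from -0.59 to 0.37. Against C0 it went only from -0.29 to 0.02. Leaving out ribosomal protein, histone and mitochondrially encoded genes gave -0.59 and 0.37 over the other CD8+ cells. Ribosomal protein genes, which are short, held 8.92% ± 0.022 of UMIs in C4, 11.5% in C0 and 16.0% in C2. How much of the difference in any 1 gene goes with transcript length was not tested.

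**Figure D3:**
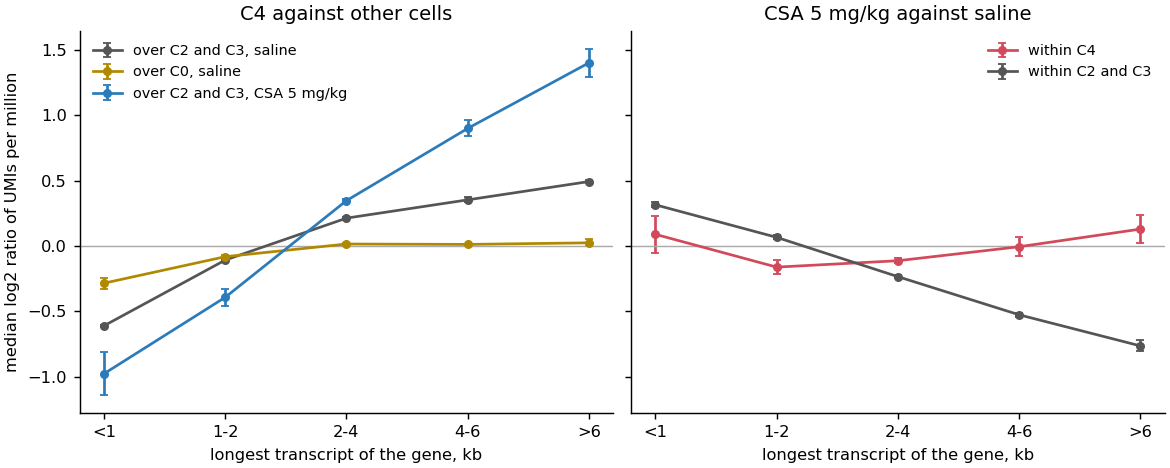
Median log2 ratio (y axis) by bin of the longest annotated transcript in kb (x axis), with error bars for the SD over 3 pools, for C4 over other clusters in one panel and for CSA 5 mg/kg over saline within clusters in the other. C4 over C2 and C3 climbs with length in saline and more steeply at CSA 5 mg/kg, and the change with CSA falls with length in C2 and C3 but not in C4.

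To ask what lower dose CSA did to the cells still found in C4, the 3 pools at CSA 5 mg/kg were compared with the 3 saline pools in edgeR (quasi-likelihood test, p-values adjusted by Benjamini-Hochberg). These pools held 22, 26 and 33 cells of C4, and membership in C4 had been set at each dose from the same RNA counts. The p-values thus hold for the cells as clustered, and a change within cells cannot be told apart from a change in which cells were placed in C4. The 3 pools of a dose also shared a capture, so that a difference between doses cannot be told apart from one between captures. Of 8360 genes, 283 (3.39%) changed, 168 (2.01%) of them upward and 115 (1.38%) downward, and without the second pool at CSA 5 mg/kg 183 changed. Of the lists, S phase genes fell (11 of 30), and oxidative phosphorylation genes (10 of 26) and chemokine receptor and integrin genes (6 of 12) rose. Values are shares of C4's own RNA, so that the number of cells does not enter them.

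Of the 30 S phase genes 11 fell and none rose, and no gene of the list had a positive log2 change (median -0.54, against -0.03 over all genes). Cdc6, which loads the replicative helicase, went from 84.1, 85.9 and 71.2 CPM in saline to 11.4, 16.1 and 40.0, a log2 change of -1.55 (SE 0.38, adjusted p = 3.09e-03 in edgeR). With C4 at 88053 to 199989 UMIs a pool at this dose, these Cdc6 levels rest on few UMIs. With 1 pool left out the Cdc6 value ranged from -2.55 to -1.36. Mcm2, a subunit of that helicase, went from 165, 181 and 153 to 56.8, 88.7 and 110 CPM (-0.82, adjusted p = 1.52e-02). Mcm3, Mcm4, Mcm6, Mcm7, Rrm1, Rrm2, Pclaf, Lig1 and Chaf1b fell too, and in each of the 11 genes the groups did not overlap. Pold2 and Rfc2, of the replication fork, fell by 1.39 and 1.22 on the log2 scale. Hist1h1a, a replication-dependent linker histone, went from 549, 527 and 501 to 227, 250 and 110 CPM (-1.53, SE 0.17, adjusted p = 6.07e-15), and Hist1h1c fell by 1.11.

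Of the 32 mitotic genes 4 rose, the marker Mki67 among them, and none fell. Mki67 went from 2742, 2710 and 2686 CPM to 4384, 3815 and 3695 (a log2 change of 0.56, SE 0.09), given with no p since the gene is a marker of the cluster, and Cenpf, Cenpe and Knl1, which act at the kinetochore, rose by 0.74, 0.44 and 0.44. Top2a, a marker of C4 as well, was at 1772, 2065 and 1485 CPM (0.21) and is given with no p. The summed UMIs of the S phase list went from 0.730% ± 0.00502 of C4's RNA to 0.521% ± 0.0451, and those of the mitotic list from 1.35% ± 0.0237 to 1.57% ± 0.189.

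Cd226, a marker of C4 like Mki67, is given with no p. It was at 411, 367 and 394 CPM in saline and at 352, 403 and 390 at CSA 5 mg/kg, a log2 change of 0.02 (SE 0.13), and the groups overlapped. Pdcd1, which encodes PD-1 (-0.27, adjusted p = 0.311), Gzmb (-0.13, adjusted p = 0.602) and Prf1 (0.11, adjusted p = 0.771) did not pass. None of 20 genes of the calcineurin and NFAT response and none of 12 effector transcription factor genes passed, with medians of -0.01 for both lists. Tnfrsf9, the costimulatory receptor 4-1BB, was the only one of 15 activation genes to fall (-0.58, adjusted p = 2.68e-02). Fasl, the death ligand, went from 73.3, 77.5 and 83.6 CPM to no more than 40.3 in any pool (-1.16, adjusted p = 3.40e-02, and 6.25e-02 in DESeq2). Gzma and Ccl5 rose by 0.44 and 0.37 and Havcr2, the only one of 9 inhibitory receptor genes to pass, by 0.46, all 3 with overlapping pools.

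Of 12 chemokine receptor and integrin genes 6 rose and none fell, with a median of 0.42. Itgb1, the integrin β1 chain, went from 638, 627 and 606 to 1022, 1057 and 715 CPM (0.55, adjusted p = 5.09e-05), and Cxcr3, Ccr2, Itgal and Itgb7 rose too. Of 18 memory genes Il7r rose from 38.5, 47.0 and 46.0 to 56.8, 88.7 and 110 CPM (1.10, adjusted p = 8.04e-03), Klf3 and Ly6c2 rose as well, and none fell. Klrc2 and Hcst rose among 8 killer lectin-like receptor and adaptor genes. Of 26 oxidative phosphorylation genes 10 rose and none fell (median 0.48), with Atp5k and Atp5e first. Of 18 glycolysis genes Tpi1 and Pgam1 fell and none rose. No interferon-stimulated gene of 10 and no survival gene of 11 passed, but Ifitm1 rose from 133, 91.7 and 110 to 216, 589 and 435 CPM (2.01, SE 0.15, adjusted p = 5.10e-26) and Ifitm3 by 1.29. The remaining falls among the named genes were Abcf2 (-1.57), Uqcrc2, Pmpca and Mrpl17, and the remaining rises were Rps28, Rps29, mt-Nd3, Cox17 and Romo1, with log2 changes from 1.16 to 1.39.

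Myeloid markers and signs of RNA quality moved with these changes. S100a8, the calprotectin gene of neutrophils, went from 23.5, 58.8 and 41.6 CPM to 500, 105 and 80 (2.11, SE 0.26, adjusted p = 9.60e-12 in edgeR and 5.26e-02 in DESeq2), and S100a9 rose by 1.76. Without the first pool at CSA 5 mg/kg the S100a8 value was 1.11, and with 1 pool left out in turn it ranged up to 2.62. They were the 2 of 5 tested myeloid markers that passed. The summed level of the 7 myeloid markers was 249 to 314 CPM in C4 of saline pools and 380 to 1011 at CSA 5 mg/kg, against 336 to 348 in C2 and C3 of the same CSA pools. B cell markers summed to 115 to 145 CPM in saline and 90.9 to 202 at CSA 5 mg/kg. Malat1, a nuclear RNA, went from 2930, 2947 and 3248 to 5190, 4356 and 4000 CPM, and mitochondrially encoded RNA from 2.22% to 3.34% of UMIs. Their part in the changes within C4 was not tested. With C4 cells that had a TCR clonotype, an alternative chosen after seeing the data, 162 genes changed.

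More genes passed in the other cycling cells. In C2 and C3 together, 4773 of 9278 genes (51.4%) changed at CSA 5 mg/kg, 2390 (25.8%) upward and 2383 (25.7%) downward, in a fit with many more cells and UMIs than that of C4. On plain library sizes the split was 870 up and 4691 down, and the median over all genes moved from -0.02 to -0.34 on the log2 scale. Since a gene past the threshold in one cluster and not in the other need not differ between them, the difference of the changes was tested itself, with the pool as a block.

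The change at CSA 5 mg/kg differed between C4 and the other cycling cells for 1589 of 9842 genes (16.1%). This test, too, holds for cells as clustered, since membership in C4, C2 and C3 at each dose came from the same counts, and changes within cells cannot be told apart from changes in which cells were placed in which cluster. The difference was upward in C4 for 667 (6.78%) and downward for 922 (9.37%). On plain library sizes 1357 differences were upward and 278 downward, with the median over all genes moving from -0.07 to 0.25, and without the second pool at CSA 5 mg/kg 1035 genes differed. For Cd226 and Mki67, which mark C4, the values are a description and no p is given. Cd226 was at 288, 301 and 291 CPM in C2 and C3 of saline pools and at 134, 136 and 162 at CSA 5 mg/kg, a log2 change of -0.68 (SE 0.06), and the difference of the changes was 0.65 (SE 0.15). At this dose each C4 pool, with 352, 403 and 390 CPM, lay above each pool of the other cycling cells.

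**Figure D4:**
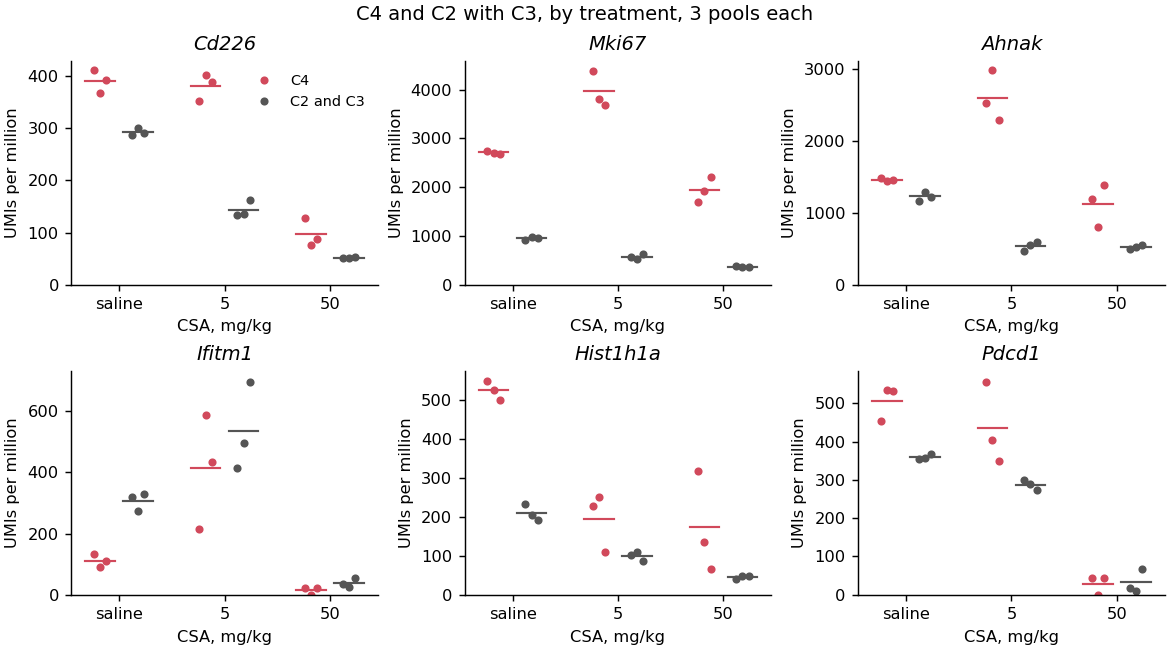
Levels of Cd226, Mki67, Ahnak, Ifitm1, Hist1h1a and Pdcd1 in CPM (y axis) by treatment in C4 (red) and in C2 and C3 together (grey), with a point for each of 3 pools. In C2 and C3 the points of Cd226, Mki67 and Ahnak lie lower at CSA 5 mg/kg than in saline, and those of Ifitm1 lie higher at 5 mg/kg in both.

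Mki67 went from 923, 971 and 957 to 561, 532 and 633 CPM in the other cycling cells, and the difference of the changes was 0.91 (SE 0.11). Top2a, a marker too and given with no p, had a difference of -0.06, and the sign of this value turned on plain library sizes (0.27). Havcr2 differed by 1.08 (adjusted p = 2.32e-10 in edgeR), with 625, 339 and 510 CPM in C4 and 91.8, 85.9 and 101 in C2 and C3 at CSA 5 mg/kg. Gzmb differed by -0.58 (adjusted p = 1.50e-04), with overlapping C4 pools. Pdcd1 did not pass (-0.29, adjusted p = 0.147).

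Among lists, the S phase genes differed downward in C4 for 24 of 30 and upward for none. Mitotic genes were mixed, 3 upward (Cenpe, Cenpf and the marker Mki67, whose value is a description) and 9 downward. Of the downward ones Cdk1 was the largest (-1.23). Integrins and chemokine receptors differed upward for 5 of 12, led by Itga4, the integrin α4 chain, which stood at 2305, 2904 and 2165 CPM in C4 and 490, 523 and 578 in C2 and C3 at CSA 5 mg/kg (1.46, adjusted p = 3.02e-27). Memory genes differed upward for 5 of 20, among them Klf3 and Il7r, and genes of the calcineurin and NFAT response for 3 of 22, which were Nfatc1, Nfatc2 and Ppp3ca. Glycolysis genes differed downward for 9 of 18 and upward for 1, and oxidative phosphorylation genes downward for 17 of 26 and upward for none. Of the effector transcription factors 3 differed upward and 1 downward, and of cytotoxic genes 1 upward and 3 downward. Of activation genes 2 differed upward, the marker Cd226 among them, and 1 downward.

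The 10 largest upward differences were Ulbp1, Ptpn4, Hivep2, Dennd4c, Ahnak, Macf1, Ly75, Tnik, 4932438A13Rik and Kmt2c, whose longest annotated transcripts run from 5.96 kb (Ulbp1) to 23.5 kb (Macf1). Ahnak, a giant scaffold protein, went from 1478, 1442 and 1450 to 2533, 2985 and 2285 CPM in C4 and from 1165, 1292 and 1223 to 471, 550 and 595 in C2 and C3 (difference 1.66, SE 0.11, adjusted p = 7.96e-37 in edgeR). Ulbp1, a ligand of NKG2D, went from 66.8 to 69.5 CPM in C4 of saline pools to 102 to 160 at CSA 5 mg/kg and had the largest difference, 2.03. The largest downward differences were Nudcd2 (-1.97), Pold2 (-1.87), Eny2 (-1.78) and Abcf2 (-1.74), followed by Anapc15, Rfc2, Mrto4, Fkbp3, Fabp5 and Hmgn1. The longest transcripts of these 10 run from 1.22 kb (Mrto4) to 5.00 kb (Rfc2) and 6.94 kb (Fkbp3).

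Over all genes, the median longest transcript was 6.12 kb among the 667 upward differences, 1.98 kb among the 922 downward ones and 3.35 kb among all genes tested. In C2 and C3 the median change at CSA 5 mg/kg went from 0.32 for genes under 1 kb to -0.77 for genes over 6 kb, whereas in C4 it was 0.09 and 0.13. Among the genes that changed within C4, 31.1% of the higher and 5.22% of the lower ones were under 1 kb, against 4.50% of all genes tested there. At CSA 5 mg/kg the median ratio of C4 over C2 and C3 thus ran from -0.98 to 1.402, a wider range than in saline. Cd226, with 4.49 kb, lies in the bin of 4 to 6 kb, where C4 stood above C2 and C3 at this dose by a median of 0.90. The ribosomal protein share was 9.65% ± 1.42 in C4 and 20.8% ± 0.197 in C2 and C3 at CSA 5 mg/kg. The part of transcript length in these differences was not tested.

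At CSA 50 mg/kg C4 held 6, 7 and 7 cells per pool and was not tested. Mki67 was at 1697, 1929 and 2203 CPM and Top2a at 1357, 1731 and 2026, still far above the 364 ± 11.4 and 375 ± 28.4 of C2 and C3. Cd226 rested on 6, 5 and 4 UMIs, or 127, 75.9 and 88.1 CPM, below every saline pool of C4 and above the 50.5, 51.3 and 52.4 of C2 and C3. Pdcd1 had 2, 0 and 2 UMIs and Tox 1, 0 and 1 UMIs, or at most 44.1 CPM of Pdcd1, against 455 to 536 CPM in saline pools of C4. Ccl5 was at 1824, 6606 and 7555 CPM, above the saline pools of C4, and Gzmb at 2439, 3463 and 2467.

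In C4, 930 cells had a clonotype, defined by the study from the amino acid sequences of the receptor chains, and these formed 694 clonotypes. Of them, 687 had C4 cells in 1 pool and 7 in 2 pools. Cells of 1 clonotype within a pool are not independent, and comparisons are made over pools.

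The larger a clonotype was in its saline pool, the more of its cells lay in C4. Among clonotypes of 1 cell, 18.1%, 19.8% and 17.8% of cells lay in C4 in the 3 saline pools. For clonotypes of 2 to 4 cells the shares were 28.6%, 26.7% and 22.9%, and for 5 to 9 cells 38.6%, 30.5% and 33.6%. For clonotypes of at least 10 cells they were 43.3% (95% exact interval 34.8 to 52.1), 45.08% (36.1 to 54.4) and 36.9% (26.6 to 48.1). The order was the same in each pool, although intervals of neighbouring sizes overlapped. The largest class holds 5 clonotypes per pool.

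**Figure D5:**
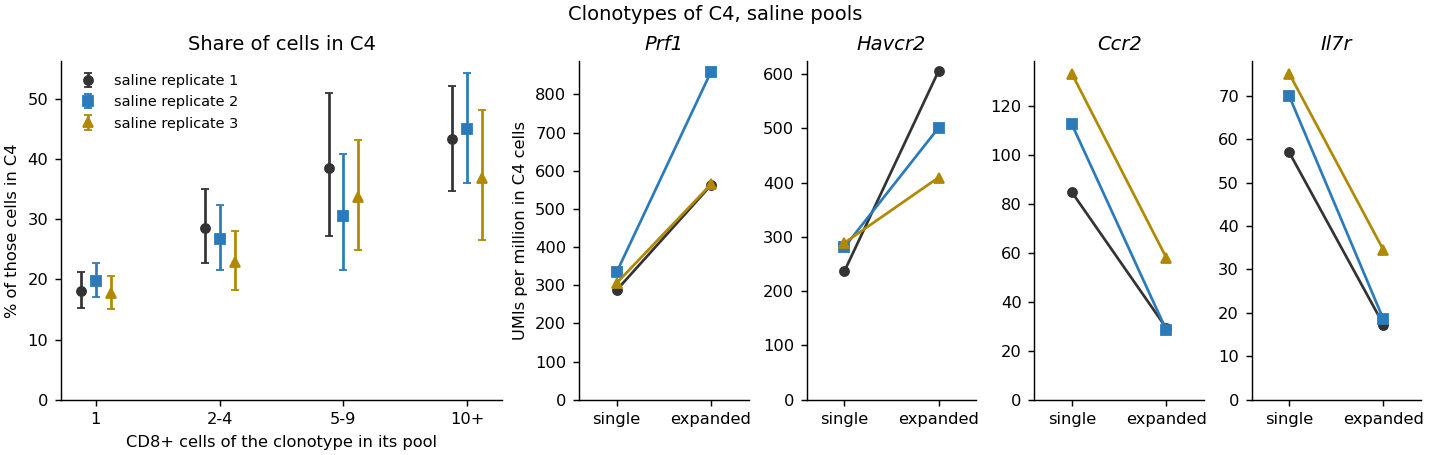
The left panel plots the share of cells in C4 (percent, with 95% exact binomial intervals) by the size of the clonotype in each saline pool, and the right panels the levels of Prf1, Havcr2, Ccr2 and Il7r in CPM in C4 cells of single and of expanded clonotypes, with a line joining the values of a pool. The share climbs from 17.8 to 19.8% for single cells to 36.9 to 45.08% for the largest clonotypes. Prf1 and Havcr2 are higher and Ccr2 and Il7r lower in expanded clonotypes in each pool.

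Of 15 clonotypes with at least 10 cells, 13 had a larger share of their cells in C4 than all clonotyped CD8+ cells of their pool had, with a range of 18.2 to 62.2% and a median of 36.4%. The CDR3 nucleotides, which encode the loop that meets the antigen, are given for the largest clonotype of each saline pool and for the one with the highest C4 share, as deposited and read 5′ to 3′, because they are the receptors behind the largest groups of related C4 cells in these pools. In saline replicate 2 the largest clonotype had 64 cells, 39 of them in C4, and used TRAV16 with TRAJ34 and TRBV13-3 with TRBJ1-1. In saline replicate 1 the second largest had 37 cells, 23 of them in C4, with TRAV7-5 and TRBV12-1, and the largest 60 cells, 20 in C4, with TRAV6-6 and TRBV17. In saline replicate 3 the largest had 21 cells, 9 in C4, with TRAV7-6 and TRBV5. Each of the 4 came with a single pair of nucleotide sequences in all of its cells of that pool. By amino acid sequence, the largest of saline replicate 1 also had 1 cell in saline replicate 2 and 1 in saline replicate 3. The second largest had 3 cells in saline replicate 2.
saline replicate 2, largest clonotype, alpha: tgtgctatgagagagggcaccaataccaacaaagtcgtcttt
saline replicate 2, largest clonotype, beta: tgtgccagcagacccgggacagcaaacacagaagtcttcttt
saline replicate 1, second largest clonotype, alpha: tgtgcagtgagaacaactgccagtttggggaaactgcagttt
saline replicate 1, second largest clonotype, beta: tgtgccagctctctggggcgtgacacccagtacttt
saline replicate 1, largest clonotype, alpha: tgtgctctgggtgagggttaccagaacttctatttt
saline replicate 1, largest clonotype, beta: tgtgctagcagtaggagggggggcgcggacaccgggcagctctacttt
saline replicate 3, largest clonotype, alpha: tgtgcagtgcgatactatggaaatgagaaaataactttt
saline replicate 3, largest clonotype, beta: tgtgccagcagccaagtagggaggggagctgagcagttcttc

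The 4 clonotypes used 4 different Vβ segments, and 5 of 21 Vβ and 9 of 86 Vα segments had saline pools that did not overlap between C4 and the other CD8+ cells. Among those Vα segments were TRAV17, TRAV6-2 and TRAV7-1, with 0 clonotypes in C4. Full separation of 3 pools from 3 can also come about by the order of pools alone, and whether V use differed was not tested. Over all clonotypes with a beta chain, TRBV12-2 was used by 13.96% in C4 and 12.4% in the other CD8+ cells, TRBV3 by 7.29% and 5.41%, and TRBV14 by 2.94% and 5.02%, given as means of 3 saline pools with no test.

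The share of cells in clonotypes of at least 2 cells was 54.2%, 50.2% and 48.7% in C4 of the saline pools, against 32.9%, 34.5% and 34.9% in the other CD8+ cells. C2 (41.9 to 46.2%) and C3 (41.2 to 44.6%) lay between, C0 was at 30.3 to 34.5%, and in the naive C7 0 of 30, 0 of 29 and 0 of 27 cells were in such a clonotype, which allows up to 11.6, 11.9 and 12.8% by the exact interval. Over the 6 pools of saline and CSA 5 mg/kg the difference between C4 and the other CD8+ cells was 13.5 percentage points ± 6.58 and had the same sign in 6 of 6 pools, with p = 0.03125 in a two-sided exact sign-flip permutation test, the smallest p that 6 pools can give, and p = 0.0625 after adjustment over the 4 comparisons made. Against C0 it was 19.8 points, with the same p-values. Against C2 and C3 it was 5.86 and 5.34 points (5 of 6 pools, exact p = 0.09375, adjusted 0.09375). With expanded meaning at least 5 cells, the differences to the other CD8+ cells, C0 and C2 had adjusted p-values of 0.04167 and that to C3 of 0.0625 in the exact permutation test. With clonotypes defined by V and J genes and nucleotides, the difference to the other CD8+ cells was 12.1 points in 5 of 6 pools (adjusted exact p = 0.125), and those to C2 and C3 were 4.03 and 3.76 points (adjusted exact p = 0.3125). Among cells with 1 alpha and 1 beta chain the mean shares were 55.0% in C4 and 36.0% in the other CD8+ cells. C4 was higher in 4 of 4 pools (adjusted exact permutation p = 0.125).

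The Simpson index, the chance that 2 cells of a set share a clonotype, was 136.7, 169.3 and 35.1 per 10000 in C4 of the saline pools and 30.5, 17.5 and 10.6 in the other CD8+ cells. It was higher in C4 in each saline pool and in 4 of the 6 pools tested, and no comparison passed (exact permutation adjusted p = 0.1875 for each of the 4). The saline pools differed widely in this index, which the largest clonotypes of a pool set. At CSA 5 mg/kg the expanded share in C4 was 32.4% ± 6.99, against 51.0% ± 2.82 in saline, with exact permutation p = 0.1, the smallest that 3 pools against 3 can give, and rested on 12, 18 and 18 cells.

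Members of a C4 clonotype were found in other clusters too. Of the C4 clonotypes with at least 2 cells in the pool, 63 of 66, 62 of 70 and 72 of 76 also had cells outside C4 in the 3 saline pools. Of those outside cells 30.6%, 29.1% and 30.5% lay in C2 and 28.3%, 25.1% and 26.3% in C3, which hold 21.0 to 22.1% and 19.2 to 20.7% of all clonotyped cells outside C4. C0 held 25.6%, 19.4% and 22.1% of them, below its 23.2 to 27.2% of all such cells in each pool. None lay in C7. By the study's pseudotime score, whose median was 28.8 for saline C4 cells, C4 lay between C3 (22.7) and C2 (32.8).

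Within C4, cells of expanded clonotypes differed from cells of single clonotypes. Cells of clonotypes with at least 5 cells in the pool (85, 84 and 68 cells of C4) were compared with cells of clonotypes seen once (126, 155 and 142 cells) in the 3 saline pools, with the pool as a block. Over all doses, 678 of the 930 clonotyped C4 cells had 1 alpha and 1 beta chain, and the others were kept. Whether a missed chain made cells count as single was not tested. By edgeR's quasi-likelihood test 291 of 7806 genes differed (3.73%), 131 (1.68%) upward and 160 (2.05%) downward in expanded clonotypes. By DESeq2 13 genes passed, 9 upward and 4 downward, among 693 for which it gave an adjusted p, and without saline replicate 2 85 passed in edgeR. A single clonotype gave 39 of the 84 expanded cells of saline replicate 2, and 2 clonotypes gave 20 and 23 of the 85 of saline replicate 1.

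Of 16 cytotoxic genes 3 were higher and 3 lower in expanded clonotypes (median -0.08), and of 8 inhibitory receptor genes 2 were higher and none lower (median 0.005). Prf1 was at 562, 859 and 564 CPM in expanded and 287, 334 and 306 in single clonotypes, a log2 difference of 1.09 (SE 0.08, adjusted p = 1.66e-14 in edgeR and 7.38e-10 in DESeq2). Every pool of expanded cells lay above every pool of single cells. Havcr2 was at 605, 501 and 409 against 236, 281 and 289 CPM (0.90, SE 0.10, adjusted p = 2.27e-09 in edgeR and 2.69e-02 in DESeq2). Gzmb was at 5719, 3958 and 4071 against 3013, 3540 and 3643 CPM (0.41, adjusted p = 4.86e-05 in edgeR and 0.602 in DESeq2), and saline replicate 1 gave most of the difference, since without it the value was 0.15. Pdcd1 was higher in edgeR (0.39, adjusted p = 2.10e-03) with overlapping pools. Gzmc was at 133, 11.8 and 53.9 against 7.27, 14.5 and 19.0 CPM and passed in edgeR, but was lower in expanded clonotypes in 1 of the 3 pools. Tnfrsf9 and Il2rb were higher among activation genes, Fcer1g, a signalling adaptor, was 1.01 higher, and Cpd, Drosha, Ubash3b, Mettl16, Adam8, Gnl3 and Slc30a7 were other named genes that were higher.

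By edgeR, genes of homing, memory and innate-like receptors were lower in expanded clonotypes. Of 18 memory genes 7 were lower and none had a log2 difference above 0 (median -0.46). Il7r was at 17.3, 18.5 and 34.5 CPM in expanded against 57.0, 69.9 and 75.1 in single clonotypes (-1.56, adjusted p = 1.88e-05 in edgeR), and Bcl2, Klf3, Btg1, Klrg1 and Ly6c2 were lower too, the last of them with overlapping pools. Of 11 chemokine receptor and integrin genes 5 were lower and none higher. Ccr2, a receptor for monocyte chemokines, was at 29.4, 28.6 and 58.2 against 84.9, 113 and 133 CPM (-1.55, SE 0.19, adjusted p = 1.16e-07). DESeq2 gave no adjusted p for Il7r or Ccr2.

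Cd7, Klrd1 and Klrk1 were lower in edgeR, by -0.94, -0.85 and -0.64, among 7 killer lectin-like receptor and adaptor genes. Of the effectors Ccl5, Gzma and Gzmk were lower, by -0.56, -0.53 and -0.33. Of 10 interferon-stimulated genes Zbp1, Gbp2 and Ifi203 were lower, and of 12 effector transcription factors 3, among them Id2 and Stat4. Arl4c, Itgax, Serpina3g, Kbtbd11, Ptp4a3 and Ifi47 were other named genes that were lower, with log2 differences from -0.93 to -1.22. Cd226 did not pass (-0.16, adjusted p = 0.400), nor did Mki67 (-0.05, adjusted p = 0.787), whereas Top2a, 1 of 2 mitotic genes of 32 that passed, was lower (-0.28, adjusted p = 1.17e-03 in edgeR and 0.157 in DESeq2). Of 18 genes of the calcineurin and NFAT response and of 26 oxidative phosphorylation genes none passed, and of 18 glycolysis genes Ldha and Tpi1 were higher.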

How the data were processed

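Donor T cells of 3 captures, 1 per treatment with 3 hashtag pools each, were profiled by droplet 5′ RNA and TCR sequencing. Per the labels and the submitters' processing notes, reads were processed with Cell Ranger on mm10 and Seurat 3.0.0, and doublets and dead cells had been removed. The authors deposited raw UMI counts for 18029 genes in 21204 cells, and a table of cells with cluster, pool, clonotype, mitochondrial fraction and a pseudotime score. UMI sums of all 10833 CD8+ cells equalled the deposited totals. UMIs were summed per cluster and pool and given as CPM. In saline, log2 ratios (prior 1 CPM) were called at 2-fold or more in every pool with a mean of at least 10 CPM on the higher side. The other comparisons used edgeR 4.0.16 (quasi-likelihood test, TMM, filterByExpr) in R 4.3.3, with Benjamini-Hochberg adjustment over all genes tested and a threshold of 0.05. SE was the log2 change over the root of F. The fits took pools with at least 10 C4 cells, and scripts were tested on simulated data. DESeq2 1.42.0 was an alternative, and its missing adjusted p-values were kept missing. TCR and immunoglobulin segment genes were left out of the genes tested in every edgeR and DESeq2 fit. Clonality was tested by exact permutation in Python 3.11.15 with scipy 1.17.1. Transcript lengths were the longest of GENCODE annotation for GRCm38, and 17805 of 18029 symbols matched.

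Named genes were the 15 highest and 15 lowest ratios in each saline comparison among called genes of at least 50 CPM, without receptor segments, ribosomal protein and mitochondrial genes, and the 10 largest changes each way in the tests, with at least 50 CPM on average and pools that did not overlap. To these came members of the 19 gene lists. Some genes that met the rule are not reported here. Malat1 was named after its values were seen. The members of C4, the lists and the comparisons were chosen with earlier results of these data known. All pools of a treatment shared a capture, so that p-values between doses hold no spread between captures. Beyond the capture, nothing says that pools shared a day or batch, and p-values measure the spread between pools of mice.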

Additional observations from a re-analysis of the deposited data

Results flagged for a closer look

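A difference between groups, by edgeR's interaction test, brought 1589 genes here: their change at CSA 5 mg/kg was not the same in C4 as in C2 and C3. Membership in C4, C2 and C3 at each dose was set from the same RNA counts, so that a change within cells cannot be told apart from a change in which cells were placed in which cluster. Cd226 (0.65) and Mki67 (0.91) mark C4, and their log2 differences are a description. The 10 genes with the largest upward difference were Ulbp1 (2.03), Ptpn4 (1.94), Hivep2 (1.75), Dennd4c (1.75), Ahnak (1.66), Macf1 (1.61), Ly75 (1.60), Tnik (1.60), 4932438A13Rik (1.57) and Kmt2c (1.57). Those with the largest downward difference were Nudcd2 (-1.97), Pold2 (-1.87), Eny2 (-1.78), Abcf2 (-1.74), Anapc15 (-1.68), Rfc2 (-1.68), Mrto4 (-1.67), Fkbp3 (-1.61), Fabp5 (-1.58) and Hmgn1 (-1.57). Transcript length and the lower depth of C4 cells at this dose go along with these differences, and their part was not tested.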

How the results depend on the processing

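Of 234 values of the comparisons under an alternative, 208 stayed on the same side or within the allowed range. Clonality tests with a pool left out could not reach the threshold, and clonality values between doses were judged by sign alone. Part of the 208 could thus hardly have come out otherwise. Among clonotyped cells the share of C4 was 23.5% in saline and 2.24% at CSA 5 mg/kg, and among the cycling clusters it was 41.0%, 6.24% and 1.29% with rising dose. With TMM scaling 186 genes were lower in C4 than in other CD8+ cells, and 40 were higher and 138 lower than in C2 and C3. In pools of CSA 5 mg/kg in place of saline, 1113 genes were higher and 188 lower than in other CD8+ cells, and 1067 and 155 than in C2 and C3. Within C4, 162 genes changed at CSA 5 mg/kg among clonotyped cells, and 174 with the hashtag number as a replicate block, a number that pools share only in name. No other call of a comparison moved with that block or its removal, which gave 1643 genes for the difference of changes and 212 for expanded clonotypes. Expanded against single clonotypes gave 13 genes in DESeq2, 150 and 151 with expanded meaning at least 2 and at least 10 cells, and 162 without the largest clonotype of each pool. With expanded meaning at least 5 cells, the expanded share of C4 exceeded other CD8+ cells, C0 and C2 by 9.63, 12.9 and 5.15 points and passed. Without the 3 largest clonotypes of each pool the Simpson index was lower in C4 than in C2, by -2.15 per 10000.

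Leaving out 1 pool gave shares of 21.4 to 22.7%, 3.00 to 3.11% and 0.540 to 0.583% with rising dose. Against other CD8+ cells it gave 341 to 358 higher and 130 to 137 lower genes, and against C2 and C3 139 to 163 and 67 to 71. The 2-fold rule asks for every pool and is looser with fewer pools, so that these gene counts do not measure stability. In the tests, leaving out 1 pool gave 183 to 313 changed genes in C4 and 4274 to 4502 in C2 and C3. It gave 1035 to 1450 for the difference of changes (fewest without CSA 5 mg/kg replicate 2) and 85 to 221 for expanded clonotypes (fewest without saline replicate 2). The Simpson difference ranged from 35.1 to 67.0 against other CD8+ cells, 40.6 to 73.9 against C0, 19.4 to 48.7 against C2 and 21.8 to 52.7 against C3, and the expanded share from 11.9 to 15.8, 17.9 to 20.7, 4.89 to 7.98 and 4.32 to 7.05 points. Between CSA 5 mg/kg and saline the Simpson index differed by -131.2 to -64.1 and the expanded share by -21.9 to -14.9.

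The change of Cd226 within C4 turned sign on plain library sizes (-0.016), with no filter (-0.048) and with the replicate block (-0.002), and ranged from -0.081 to 0.059 with 1 pool left out, and passed in none. The difference for Top2a turned to 0.27 on plain library sizes and ranged from -0.254 to 0.084 with 1 pool left out. Of 1356 values of single genes, 1190 were the same, 89 moved, 69 lost their call and 8 turned sign, all 8 of them values of Cd226 or Top2a. Causes were not tested. C4 at CSA 5 mg/kg rests on 22 to 33 cells a pool and at 50 mg/kg on 6 or 7. Values of low genes thus rest on few UMIs, and changes in them can have been missed at this depth.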
